A study of Mus musculus with 2 samples.

Results

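The NFI and ZEB genes encode 2 small families of DNA-binding transcription factors, and the positions of N6-methyladenosine (m6A) in their transcripts are described here for the newborn mouse brain. The 6 genes are Nfia, Nfib, Nfic and Nfix of the nuclear factor I family and Zeb1 and Zeb2 of the zinc finger E-box binding homeobox family. A site was counted for a gene when it lay on the gene's strand inside its GENCODE M21 interval. This gave 515 of the 219409 sites listed in either of 2 libraries. Each library was made by GLORI, in which glyoxal and nitrite convert unmethylated adenosine so that it is read as guanosine while m6A is still read as adenosine. The material was poly(A)+ RNA of a cerebellum sample and a cerebrum sample, both female, postnatal day 0 and of the F1r cross, which had a C57BL/6J mother and a PWK/PhJ father. There was 1 library per tissue, so no difference between tissues could be tested. Per the study's methods both tissues were taken from 1 mouse. The site lists held positions that had passed the study's limits on reads (over 8) and on the rate of methylation (over 0.1), and neither value was given. The read depth at a position is therefore unknown, and an adenosine missing from a list may be unmethylated, weakly methylated or covered by too few reads.

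NFI proteins bind DNA as dimers through a conserved N-terminal domain and are known for their part in the switch from making neurons to making glia, and in the maturation of cerebellar granule neurons. ZEB proteins carry a zinc finger cluster at each end, bind E-box elements and mostly repress, with the E-cadherin gene as a textbook target. Zeb2 is needed for the migration of cortical interneurons, and Zeb1 is known from neuronal progenitors. The mark itself is placed on the nascent transcript by the METTL3 and METTL14 complex at the DRACH motif, in which D is any base but C, R is A or G, and H is any base but G. It is typically densest in long internal exons and in last exons, and it is read by YTH proteins that influence decay and translation of the mRNA.

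In GRCm38 (mm10) Nfia lies on the plus strand at chr4:97772734-98118874, Nfib on the minus strand at chr4:82290173-82705750, Nfic on the minus strand at chr10:81396186-81455635 and Nfix on the minus strand at chr8:84699876-84800344. Zeb1 lies on the plus strand at chr18:5591860-5775467 and Zeb2 on the minus strand at chr2:44983632-45117395. The longest coding isoforms show how the families differ in build. The NFI messages paired short coding sequences, of 1284 nt in Nfic to 1527 nt in Nfia, with 3′ UTRs of 3951 nt in Nfix to 7636 nt in Nfia. The ZEB messages had longer coding sequences, of 3351 nt in Zeb1 and 3645 nt in Zeb2, before 3′ UTRs of 2401 nt and 4941 nt.

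The cerebellum library listed 136 sites in the 6 genes, of its 79355, and the cerebrum library 467 of its 188295. Zeb1 had 36 sites in cerebellum and 54 in cerebrum, Zeb2 30 and 119, Nfib 33 and 132, Nfia 20 and 109, Nfix 15 and 44, and Nfic 2 and 9. Every member had more sites in the cerebrum list, which was also the longer list overall. All 515 sites lay on an adenosine of the reference, and 62.5% of those in cerebellum (85 of 136, 95% Wilson interval 54.1–70.2%) but 36.2% of those in cerebrum (169 of 467, 32.0–40.6%) lay in a DRACH motif. Over all listed sites these shares were 62.1% and 46.7%. The low share in cerebrum came with sites in introns, which made up 250 of the 467. Over coding genes 47922 of the 188295 cerebrum sites were intronic. On annotated exons of coding isoforms the DRACH share was 77.1% in cerebellum (81 of 105) and 69.3% in cerebrum (142 of 205). Over coding genes the exonic share was 75.1% and 63.2%, inside the members' intervals (68.2–84.1% and 62.6–75.2%). The exonic DRACH sites are the main measurement below. All intervals given here cover the counting of sites within a library and not differences between animals.

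**Figure D1:**
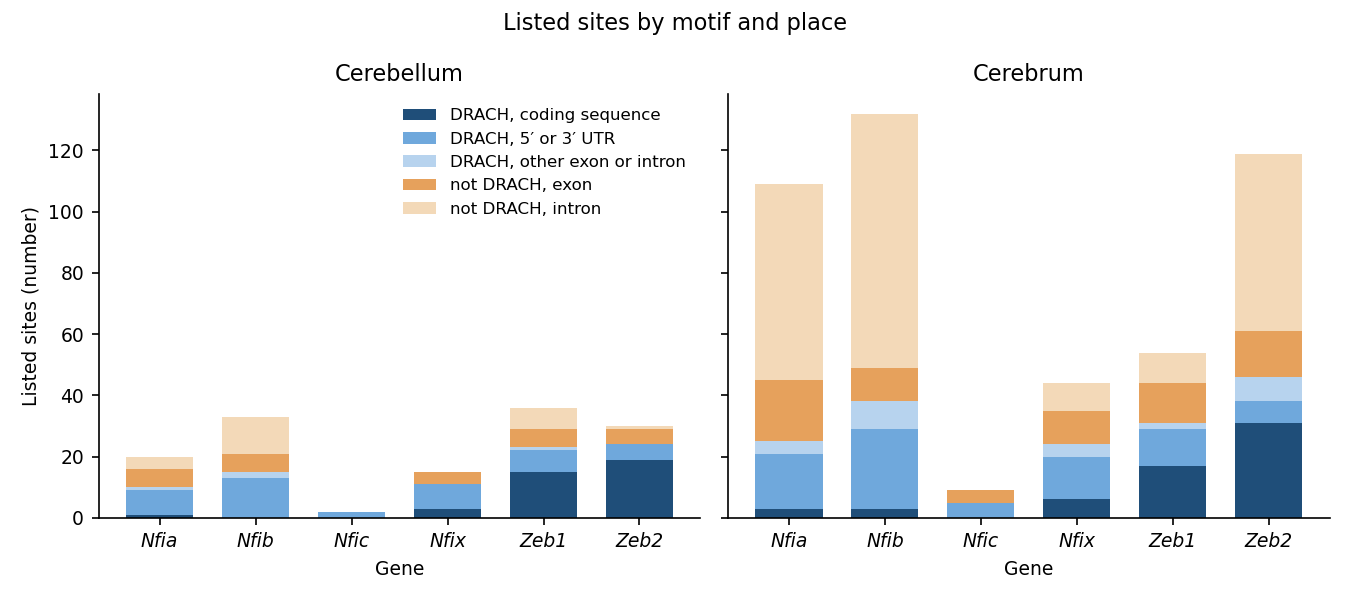
Number of listed sites (vertical axis) of each gene (horizontal axis) in the cerebellum (left) and cerebrum (right) library, stacked by DRACH motif and by place in the gene. Nfia, Nfib and Zeb2 reached 109, 132 and 119 sites in cerebrum, of which 64, 83 and 58 were intronic and outside DRACH, while Zeb1 and Zeb2 carried the most coding DRACH sites in both libraries.

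The tissue labels were set against marker genes through their exonic DRACH sites. All 13 forebrain markers had a site in cerebrum and 4 had one in cerebellum, with Tbr1 at 16 and 0. Of 11 hindbrain markers, En1 (5 and 0), En2 (8 and 0) and Barhl1 (11 and 0) had sites in cerebellum alone and Rora had 16 in cerebellum and 11 in cerebrum. Atoh1, Pax2, Lmx1a, Olig3, Ptf1a and Pcp2 had none in either list. An exonic DRACH site was listed for 35.4% of the 20803 coding genes in cerebellum and 45.6% in cerebrum. Apart from Gbx2, with 1 site in cerebellum and 2 in cerebrum, the markers with sites stood on the side of their tissue labels. The forebrain marker Lhx2 did so barely, with 6 in cerebellum and 7 in cerebrum. More sites in cerebrum were also listed for 81.3% of coding genes with a site, so that direction is common among genes. The name of the deposited cerebrum list also carries the abbreviation that the study uses for cerebellum, and the tissue label was followed.

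The exonic DRACH sites of the families lay in different parts of the message. In NFI transcripts 80% of them (28 of 35, 64.1–90.0%) in cerebellum and 78.7% (59 of 75, 68.1–86.4%) in cerebrum were in the 3′ UTR, and 11.4% (4 of 35) and 16% (12 of 75) were coding. In ZEB transcripts the coding sequence held 73.9% (34 of 46, 59.7–84.4%) in cerebellum and 71.6% (48 of 67, 59.9–81.0%) in cerebrum. The coding intervals of the families did not overlap in either library. Over coding genes the coding share was 39.1% and 40.5%, so NFI lay below it and ZEB above it. These shares take no account of the motifs on offer. The 3′ UTR held 439 of the 566 DRACH adenosines of the NFI transcripts, and the coding sequence 181 of the 350 of ZEB. Zeb1 had 15 coding and 7 3′ UTR sites in cerebellum and 17 and 12 in cerebrum. Zeb2 had 19 and 5 in cerebellum and 31 and 7 in cerebrum. Both ZEB genes and none of the 4 NFI genes had more coding than 3′ UTR sites, which was so for 26.9% of coding genes in cerebellum and 28.8% in cerebrum. Nfib was the only member with DRACH sites in its 5′ UTR, 3 in cerebellum and 4 in cerebrum, all in its 1040-nt first exon.

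**Figure D2:**
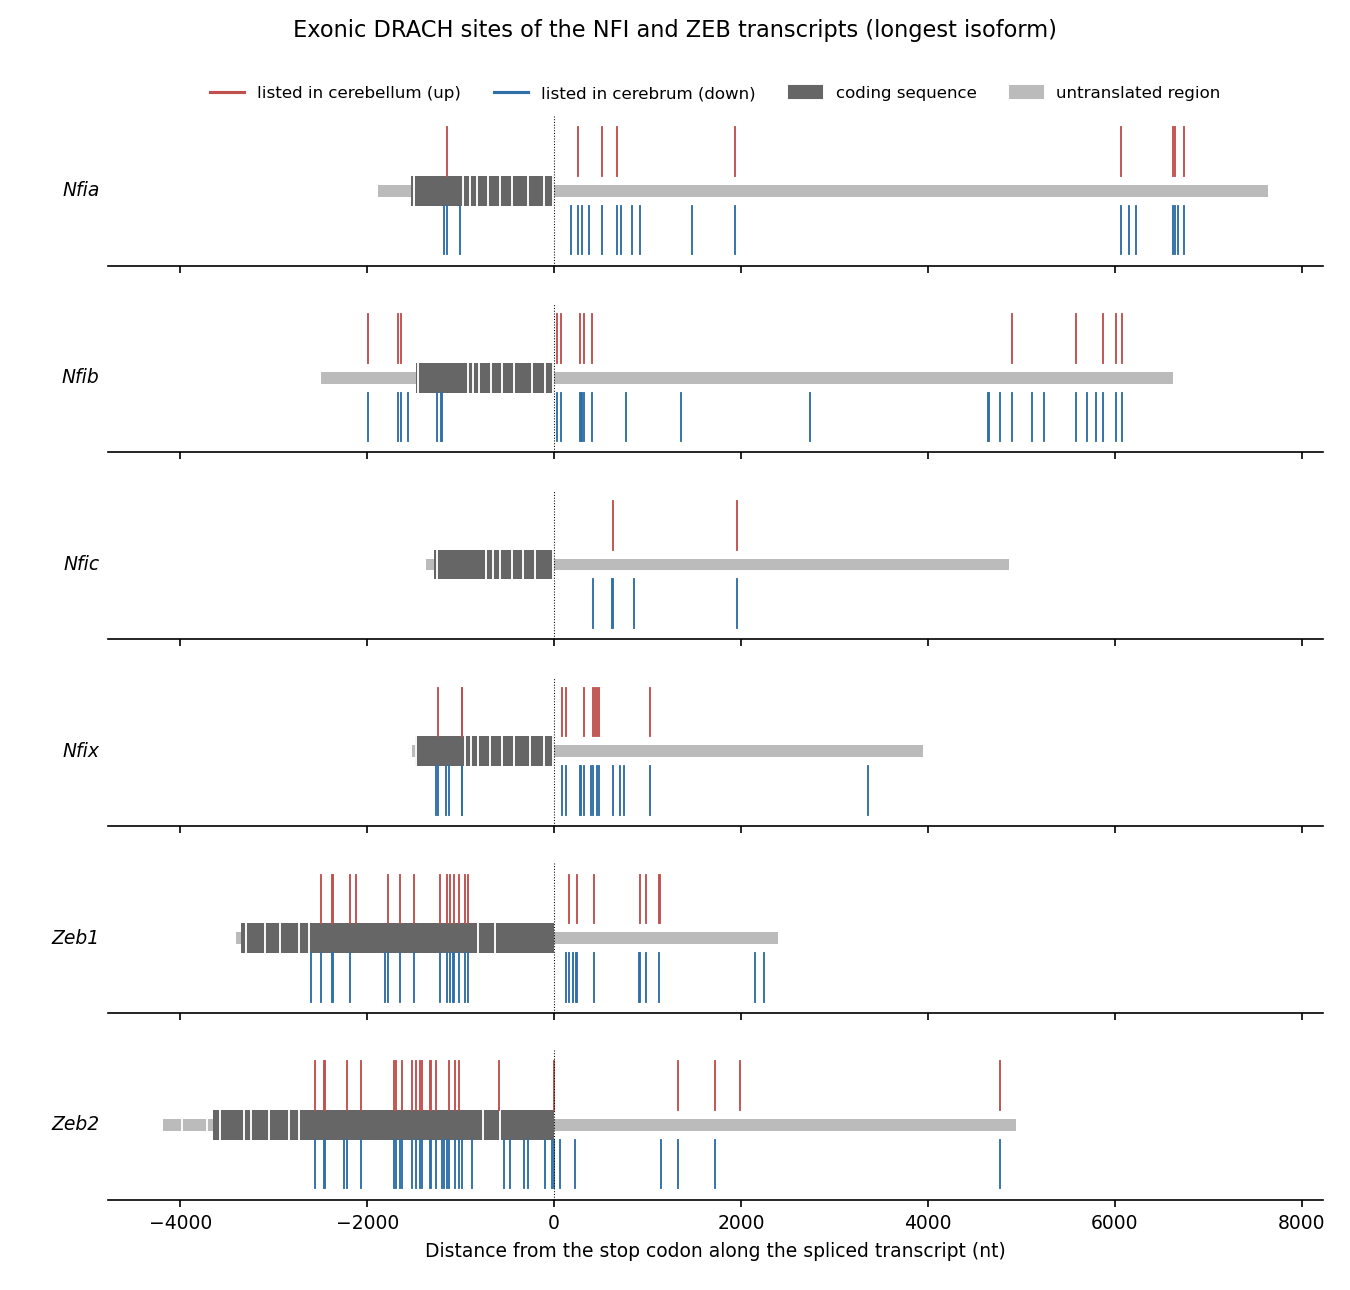
Exonic DRACH sites along the longest coding isoform of each gene, with the distance from the stop codon in nt on the horizontal axis, cerebellum sites as lines above and cerebrum sites as lines below the transcript, coding sequence as a thick bar and exon junctions as white lines. NFI DRACH sites fell in one coding exon and the 3′ UTR, and in Nfib also in the 5′ UTR, whereas ZEB sites filled the long coding exon.

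A long gene offers more motifs, so the listed sites were divided by the DRACH adenosines of the same transcript. The 6 transcripts offered 916, of which 8.84% (81, 7.17–10.9%) were listed in cerebellum and 15.5% (142) in cerebrum. The background over 841710 such adenosines of coding genes with a site was 5.16% and 8.80%, so the members as a whole were listed more densely than the background. In cerebellum the order was Zeb1 at 15.6% (10.5–22.5%), Nfix at 13.6% (7.76–22.7%), Zeb2 at 11.5% (7.84–16.5%), Nfib at 6.95% (4.11–11.5%), Nfia at 5.08% (2.70–9.38%) and Nfic at 1.65% (0.454–5.83%). In cerebrum Nfix led at 24.7% (16.6–35.1%), before Zeb1 at 20.6%, Zeb2 at 18.2%, Nfib at 15.5%, Nfia at 11.9% and Nfic at 4.13%. The intervals of neighbours in either order overlapped. In cerebellum the Nfic interval lay below those of Zeb1, Nfix and Zeb2, and the Nfia interval below that of Zeb1. In cerebrum the Nfic interval (1.78–9.31%) lay below those of Nfix, Zeb1, Zeb2 and Nfib. In exonic DRACH sites Zeb2 had more than 96.2% of the 7252 coding genes with such a site in cerebellum and more than 97.9% of the 9361 in cerebrum, and Nfic more than 49.1% in cerebrum.

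Within the coding sequence the families parted further. ZEB coding DRACH adenosines were listed at 18.8% (34 of 181, 13.8–25.1%) in cerebellum and 26.5% (48 of 181, 20.6–33.4%) in cerebrum, against 4.41% and 7.79% over coding genes. NFI coding adenosines were listed at 3.74% (4 of 107, 1.46–9.22%) and 11.2% (12 of 107, 6.53–18.6%), and both intervals held the coding gene value. Per adenosine, NFI coding sequence taken whole could thus not be told from that of coding genes, with wide intervals. Its long exons alone are given further below. In the 3′ UTR the values lay closer together, at 7.74% and 12.3% for ZEB, 6.38% and 13.4% for NFI, and 6.12% and 10.2% over coding genes.

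All NFI coding DRACH sites of the longest isoforms lay in exon 2, which was 532 nt long in each of the 4 genes and encodes most of the DNA-binding domain. Nfix had 6 of its 9 exon 2 DRACH adenosines listed in cerebrum and 3 in cerebellum, Nfia 3 and 1 of 6, Nfib 3 and 0 of 7, and Nfic 0 and 0 of 6. The other internal exons of the NFI genes, 54 nt to 185 nt long, offered 78 coding DRACH adenosines, and 0 were listed in either library, which allows a share of up to 3.85%. When the 4 proteins were aligned and their codons set side by side, 4 alignment columns held a listed DRACH site in a pair of paralogs. Codons are numbered on each gene's isoform with the longest coding sequence. These sites are printed because they show the same motif kept at the same codon, each with 10 nt on either side of the methylated adenosine and with the DRACH motif in capitals.
Nfib codon 91, chr4:82498518-82498538, minus strand: taccgggaGGACTttgtgctt
Nfix codon 82, chr8:84772064-84772084, minus strand: ttccgcgaGGACTttgtgcta
Nfia codon 118, chr4:97783397-97783417, plus strand: cggagaatTGACTgcctccgc
Nfix codon 110, chr8:84771980-84772000, minus strand: cggcggatTGACTgcctgcgc
Nfia codon 130, chr4:97783433-97783453, plus strand: tggaggttGGACCtcgtcatg
Nfix codon 122, chr8:84771944-84771964, minus strand: tggcggctGGACCtggtcatg
Nfia codon 174, chr4:97783566-97783586, plus strand: ctgtaaagGAACTcgatttat
Nfix codon 166, chr8:84771811-84771831, minus strand: caatcaaaGAACTggaccttt

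Nfix took part in all 4 pairs. All 8 sites were listed in cerebrum, and the cerebellum library listed 3 of them, Nfia codon 130 and Nfix codons 82 and 166. The GAACT sites of Nfia codon 174 and Nfix codon 166 each lay 37 nt before the end of exon 2. At the column of Nfib codon 91 and Nfix codon 82, Nfia had GGATT, which is outside DRACH, and its adenosine was also listed in cerebrum. Nfic had AGACT there and GGACC at the column of Nfia codon 130, and neither was listed. Over the 14 coding DRACH sites listed on the NFI isoforms with the longest coding sequence, 42 comparisons with another paralog could be made. The aligned base was a listed DRACH adenosine in 8 of them, which are the 4 pairs counted from each side. It was a DRACH adenosine that was not listed in 8, outside DRACH in 20 (listed in 2) and a gap in 6. The proteins shared 60.4% of aligned residues (Nfic and Nfix) to 73.4% (Nfia and Nfix).

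The long 3′ UTRs of Nfia and Nfib carried DRACH sites at both ends with a stretch between them in which few or no DRACH sites were listed. Some sites outside DRACH were listed in these stretches in cerebrum, in Nfia from 2853 nt to 6016 nt past the stop codon and in Nfib at 4262 nt, among others. In Nfia 11 cerebrum sites lay up to 1940 nt past the stop codon and 7 between 6061 nt and 6745 nt. The 4121 nt between held 64 DRACH adenosines, none of them listed in either library, and the cerebellum sites fell on either side of it as 4 and 4. In Nfib 12 of the 22 cerebrum sites lay between 4642 nt and 6075 nt. Its cerebellum sites were split as 5 up to 403 nt and 5 from 4898 nt on, with 82 DRACH adenosines between. Nfix, with the shortest NFI 3′ UTR, had 9 of 14 sites in cerebrum and 7 of 8 in cerebellum within 500 nt of the stop codon. Nfic had only 2 sites in cerebellum, at 632 nt and 1954 nt, and 5 in cerebrum.

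The sites below were found in both libraries and lie nearest to the stop codon in the 3′ UTR of each gene. They are shown with the same flanks and capitals, and they mark where the 3′ UTR signal common to the tissues begins on the longest isoform. On the Nfib isoform with the longest coding sequence, the Nfib site below is coding, at codon 544.
Nfib, 29 nt past the stop codon, chr4:82296755-82296775, minus strand: gtcaaataGGACAcccatctt
Nfix, 85 nt past the stop codon, chr8:84708568-84708588, minus strand: aaattttgAGACAtggaaata
Nfia, 254 nt past the stop codon, chr4:98111479-98111499, plus strand: tactttagGGACTgtcgtaat
Nfic, 632 nt past the stop codon, chr10:81400412-81400432, minus strand: atttggaaGGACAcatctctc
Zeb2, 1 nt past the stop codon, chr2:44988562-44988582, minus strand: catggaatAAACTactgcatt

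The Zeb2 motif overlapped the stop codon itself. In Zeb1 the corresponding site lay 158 nt past it. Few sites of either family were close to the stop codon: 7.41% of exonic DRACH sites in cerebellum (6 of 81, 3.44–15.2%) and 7.75% in cerebrum (11 of 142, 4.38–13.3%) lay within 200 nt of it on either side. Over coding genes this share was 21.4% in each library, above the intervals of the members. Within 400 nt the shares were 13.6% (11 of 81) and 19.7% (28 of 142) for the members, and 34.7% and 34.8% over coding genes. NFI alone had 22.9% within 400 nt in cerebellum, with an interval (12.1–39.0%) that held the coding gene value, and 21.3% in cerebrum. With distance the listed share of NFI 3′ UTR adenosines went from 35% (21 of 60, 24.2–47.6%) in the first 500 nt to 7.92% (21 of 265, 5.24–11.8%) beyond 2000 nt in cerebrum, and from 21.7% to 3.40% in cerebellum. The coding genes went from 20.9% to 4.74% and from 12.8% to 2.84%. The ZEB values for the first 500 nt were 45% (9 of 20) and 20% (4 of 20), and beyond 2000 nt 3.95% and 1.32%. In the first 500 nt the NFI interval lay above the coding gene value in each library, narrowly in cerebellum (13.1–33.6%).

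**Figure D3:**
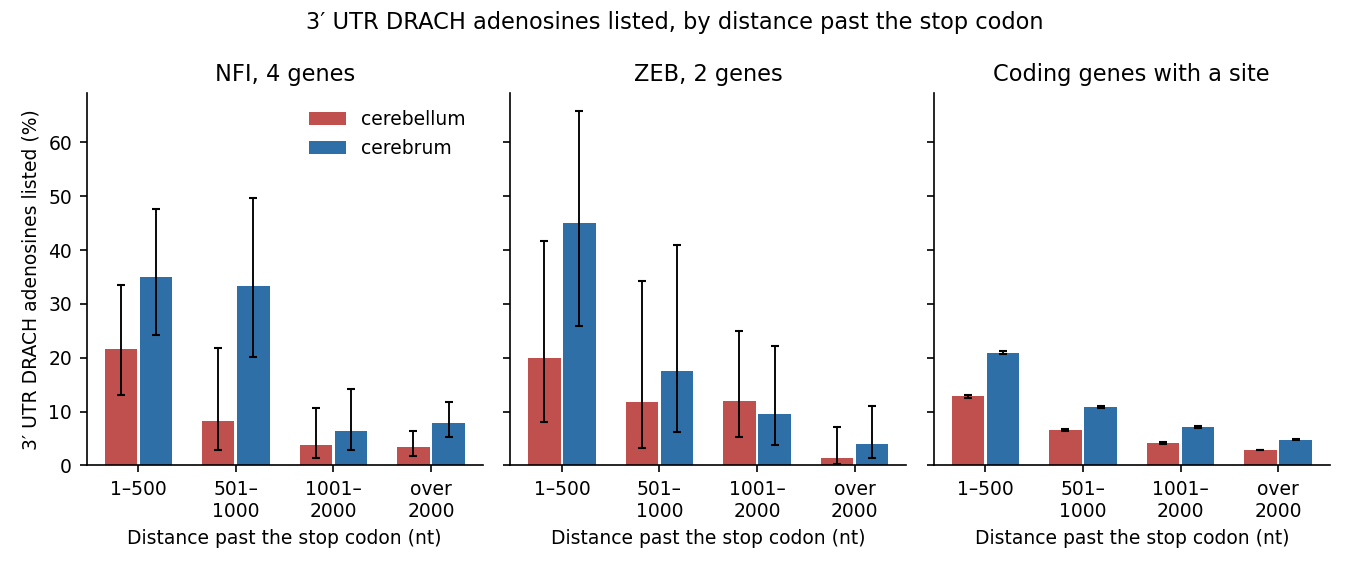
Share of 3′ UTR DRACH adenosines that were listed (vertical axis, percent) by distance past the stop codon (horizontal axis, nt), for NFI, ZEB and all coding genes with a site; bars are cerebellum and cerebrum, and error bars are 95% Wilson intervals over adenosines. The NFI share in cerebrum was 35% in the first 500 nt and 7.92% beyond 2000 nt.

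The densest 200 nt of NFI sites lay in the 3′ UTR of Nfix, where 7 DRACH sites stood between 273 nt and 463 nt past the stop codon. The cerebrum list held 6 of them, the cerebellum list 4, and both lists 3. The stretch is printed for its crowding, in transcript order.
Nfix, 273 nt, cerebrum, chr8:84708380-84708400, minus strand: tgctaagcGGACTctgctaag
Nfix, 290 nt, cerebrum, chr8:84708363-84708383, minus strand: taagcagaGGACAaacagaaa
Nfix, 317 nt, both, chr8:84708336-84708356, minus strand: atgcaacaAGACTgccttcct
Nfix, 398 nt, cerebrum, chr8:84708255-84708275, minus strand: gttcctggGGACCccaccctc
Nfix, 415 nt, both, chr8:84708238-84708258, minus strand: cctccgctGGACTtaagcttc
Nfix, 443 nt, cerebellum, chr8:84708210-84708230, minus strand: gcccagagGAACAgctcgtaa
Nfix, 463 nt, both, chr8:84708190-84708210, minus strand: acaatagtAGACAttcgagct

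In both ZEB genes the coding sites were gathered in a single long internal exon, which encodes much of the protein between the zinc finger clusters, the homeodomain-like segment included. Exon 6 of Zeb1, 1805 nt long, had 15 of its 44 DRACH adenosines (34.1%) listed in cerebellum and 17 (38.6%) in cerebrum, with 14 in both. Exon 9 of Zeb2, 1970 nt long, had 18 of 52 (34.6%) and 25 (48.1%), and all 18 cerebellum sites were also cerebrum sites. Exons 2 to 5 and 7 of Zeb1 offered 33 coding adenosines and none was listed in either library. In Zeb2 the other internal exons offered 31, of which 1 was listed, in exon 10 and in cerebellum alone. The last exon of Zeb2 held 6 coding sites, all listed in cerebrum and none in cerebellum.

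The densest 200 nt of Zeb2 lay inside exon 9 and held 6 coding DRACH sites, each of them listed in both libraries. With codons numbered on the longest isoform, they are printed as the stretch of the 6 genes where every site of the densest window was common to cerebellum and cerebrum.
Zeb2 codon 711, chr2:44996771-44996791, minus strand: actggaaaGGACCtccaagcc
Zeb2 codon 725, chr2:44996728-44996748, minus strand: accacaaaAGACTctttgtta
Zeb2 codon 737, chr2:44996692-44996712, minus strand: aaacctatGGACTccatcaca
Zeb2 codon 746, chr2:44996664-44996684, minus strand: ctatagcaGAACTccacaaca
Zeb2 codon 774, chr2:44996580-44996600, minus strand: cagttgatAAACTggaccact
Zeb2 codon 776, chr2:44996575-44996595, minus strand: gataaactGGACCactcgagg

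The last pair overlapped in sequence, with methylated adenosines 5 nt apart. Zeb1 also had its densest window in its long exon, with 6 sites between codons 736 and 799, all 6 in cerebrum and 5 in both. Fewer alignment columns were shared between the ZEB genes than among the NFI genes, and the ZEB proteins were also less alike. Zeb1 and Zeb2 were identical at 49.0% of aligned residues (524 of 1069), and of the 50 coding DRACH sites listed on the isoforms with the longest coding sequence, 1 pair fell in the same alignment column, Zeb1 codon 569 and Zeb2 codon 698. On that Zeb2 isoform the site printed above as codon 711 is at codon 755. The aligned base in the paralog was outside DRACH for 37 of the 50, a DRACH adenosine that was not listed for 6 and a gap for 5. It was a listed DRACH adenosine for 2, which are the pair in the same column counted from each side.

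Taking the members together, nearly all listed coding adenosines of internal exons lay in long exons, although most adenosines of the long exons were not listed either. Their 6 internal exons of 400 nt or more had 29.8% of coding DRACH adenosines (37 of 124, 22.5–38.4%) listed in cerebellum and 43.5% (54 of 124, 35.1–52.3%) in cerebrum. Their 43 shorter internal exons had 1 of 142 (0.704%) and 0 of 142, which allows up to 2.11%. The same division over coding genes gave 13.4% and 21.9% in long internal exons and 0.514% and 1.18% in short ones. The long exons of the 6 genes as a whole therefore lay above the coding gene value in both libraries, by more than their intervals, and the cerebellum value rested on ZEB. In the NFI long exons 14.3% (4 of 28, 5.70–31.5%) were listed in cerebellum and 42.9% (12 of 28, 26.5–60.9%) in cerebrum. The NFI interval held the coding gene value in cerebellum and lay above it in cerebrum. In the ZEB long exons the shares were 34.4% (33 of 96, 25.6–44.3%) and 43.8% (42 of 96). Distance to the nearest exon junction gave a like division. Coding adenosines over 100 nt from a junction were listed at 26.6% (34 of 128) in cerebellum and 42.2% (54 of 128) in cerebrum, and those nearer at 2.50% (4 of 160) and 3.75% (6 of 160). Over coding genes the values were 12.8% and 21.8% for the far and 0.907% and 1.90% for the near adenosines. For ZEB alone the far share was 29.9% and 42.1%, and for NFI 9.52% (2 of 21, 2.65–28.9%) and 42.9% (9 of 21, 24.5–63.5%).

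**Figure D4:**
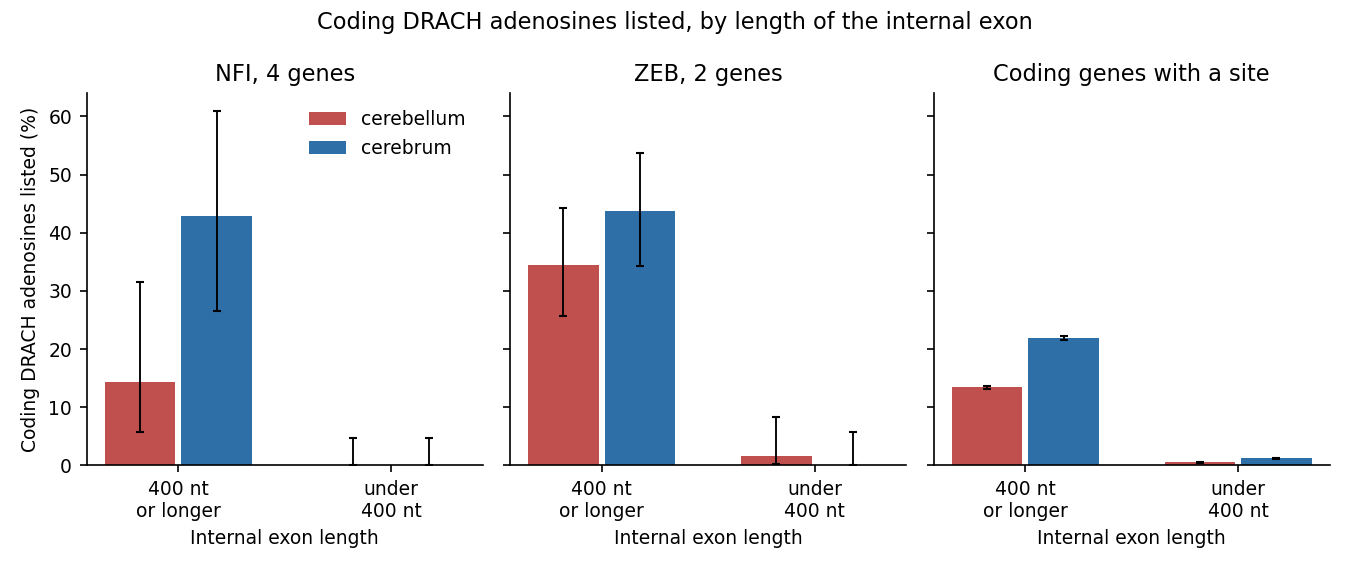
Share of coding DRACH adenosines that were listed (vertical axis, percent) in internal exons of 400 nt or more and under 400 nt (horizontal axis), for NFI, ZEB and all coding genes with a site; bars are cerebellum and cerebrum, and error bars are 95% Wilson intervals over adenosines. In both families and both libraries the long exons held nearly all listed coding sites of internal exons, with 0 of 78 NFI adenosines listed in short exons.

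Nearly every exonic DRACH site of the members in the shorter cerebellum list recurred in cerebrum. This was so for 93.8% (76 of 81, 86.4–97.3%) of cerebellum sites, above the 83.6% over coding genes. Of the cerebrum sites 53.5% (76 of 142, 45.3–61.5%) were in the cerebellum list, with 48.9% over coding genes inside the interval. The share was 45.3% (34 of 75, 34.6–56.6%) for NFI and 62.7% (42 of 67, 50.7–73.3%) for ZEB, with overlapping intervals. Nfia, Nfib and Nfic had no exonic DRACH site in cerebellum alone. The 5 cerebellum-only sites were 1 in Nfix, 443 nt past the stop codon, 2 in Zeb1, in exon 6 and 1131 nt past the stop codon, and 2 in Zeb2, in exon 10 and 1991 nt past the stop codon. The cerebrum-only sites numbered 66. Each member had more exonic DRACH sites in cerebrum than in cerebellum, as did 81.3% of 9790 coding genes, so the direction was also that of most genes. In bulk tissue, fewer cells that express a gene, less RNA per cell, a lower rate of methylation and fewer reads cannot be told apart. None of these was tested.

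The spacing of sites lay near that of coding genes, closer in cerebrum and wider in cerebellum. Neighbouring exonic DRACH sites were a median of 76 nt apart in cerebrum (136 gaps) and 127 nt in cerebellum (75 gaps), against 92 nt and 107 nt over coding genes. Nfix was the closest-set member in cerebrum at 48 nt, followed by Zeb2 at 59 nt and Zeb1 at 72 nt, and Nfic the widest at 212 nt from 4 gaps. Among the motif's forms, GGACT was the most frequent in NFI, with 16 of the 114 exonic sites in cerebrum, before GAACT and GGACA with 11 each. In ZEB, AAACT and GGACT came first with 8 each of 91, and 3 other forms followed with 7 each. No form led in ZEB as GGACT led in NFI, but these counts are small.

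Intronic sites were most numerous in 3 members. The cerebrum library listed 92 in Nfib, 68 in Nfia and 65 in Zeb2, and 13 in Nfix, 12 in Zeb1 and 0 in Nfic. The cerebellum library listed 14, 5, 1, 0, 8 and 0 in the same order. Per 100000 nt of intron the cerebrum values were 57.1 in Zeb2, 23.0 in Nfib, 20.3 in Nfia and 6.92 in Zeb1, with Nfix between the latter, and the median of 3017 coding genes with at least 50000 nt of intron was 2.62. In cerebellum they were 4.62 in Zeb1, 3.49 in Nfib, 1.49 in Nfia and 0.879 in Zeb2. Zeb2 thus had the densest introns in cerebrum, although Nfib had the most sites, and Zeb1 in cerebellum. In Nfib and Nfia a single stretch held most of them. A 112322-nt intronic stretch 3′ of exon 2 of Nfib had 64 of 92, a 96505-nt stretch after exon 2 of Nfia had 52 of 68. The largest number in a single stretch of Zeb2 was 31 of 65, over 41341 nt.

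These intronic sites differed from the exonic ones in motif and in recurrence. In cerebrum 10.4% of them (26 of 250, 7.20–14.8%) were in DRACH, against 15.1% over intronic sites of coding genes. They recurred rarely: 2 of 250 were also in the cerebellum list (0.800%, 0.220–2.87%), 1 in Nfib and 1 in Zeb1, against 4.93% over coding genes. Masked repeats held 18.4% of the cerebrum sites (46 of 250, 14.1–23.7%) and 32.1% of the cerebellum sites (9 of 28, 17.9–50.7%), with the 22.6% of all intronic adenosines of the 6 genes inside both intervals. A neighbour within 10 nt was present for 10.4% in cerebrum and 21.4% (6 of 28) in cerebellum, against 12.3% and 16.9% over coding genes. On the strand opposite to the members 1 site was listed, in the Zeb1 interval in cerebrum, so the intronic sites followed the strand of transcription. The lists give neither coverage nor rate at these positions.

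**Figure D5:**
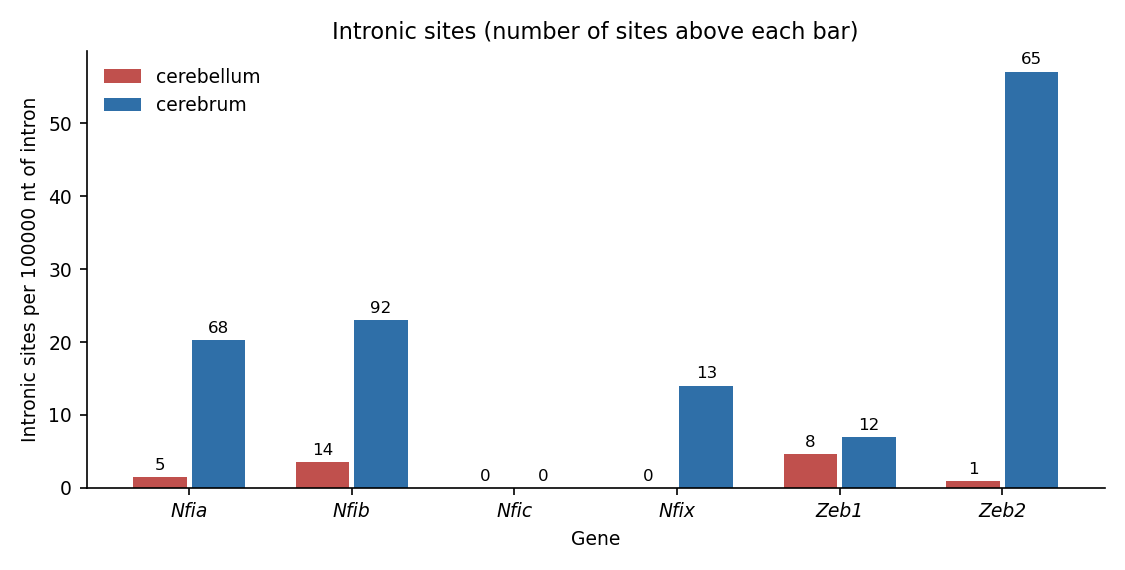
Intronic sites per 100000 nt of intron (vertical axis) of each gene (horizontal axis) in cerebellum and cerebrum, with the number of sites above each bar. Zeb2, Nfib and Nfia stood highest in cerebrum with 65, 92 and 68 sites, and Nfic had 0 in either library.

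The ZEB 3′ UTRs are textbook targets of the miR-200 family, so its seed matches were placed beside the listed sites. The mature sequences are from RefSeq (GRCm38), with the seed, bases 2 to 8, in capitals, and they form 2 seed groups.
miR-200b-3p: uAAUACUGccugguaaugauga
miR-200c-3p: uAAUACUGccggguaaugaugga
miR-429-3p: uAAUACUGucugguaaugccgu
miR-141-3p: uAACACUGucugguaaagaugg
miR-200a-3p: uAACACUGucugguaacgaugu

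The 7-nt match of the first group, CAGTATT on the transcript strand, occurred 5 times in each ZEB 3′ UTR, 3 times in Nfia and in Nfib, and 0 times in Nfic and Nfix. That of the second group, CAGTGTT, occurred 4 times in each ZEB 3′ UTR, once in Nfia and in Nfic, and 0 times in Nfib and Nfix. Of 20803 coding genes 13.4% had the first and 17.4% the second in the 3′ UTR, shares that take no account of 3′ UTR length. Listed DRACH sites came close to a few of the matches, and the rest lay 40 nt to 651 nt from the nearest one. Distances were counted from the middle base of the 7-nt match, so a site at 4 nt adjoins the match. No expected distance was worked out. A Zeb2 match lay 15 nt from a cerebrum site, an Nfib match 4 nt from one, an Nfic match 24 nt from one, and Zeb1 matches 28 nt and 29 nt from sites of the cerebellum list, 1 of them common to both. These are printed with 7 nt on either side and the match in capitals.
Zeb2, chr2:44988358-44988364, minus strand: ttttgtaCAGTGTTaaggcct
Nfib, chr4:82292019-82292025, minus strand: cagtgaaCAGTATTccttctc

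A match of these letters is a description of the sequence and not evidence that the site is bound.

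Genes whose exonic DRACH sites were spread most like those of each member were found by the distance between 6 shares, coding or untranslated by both libraries, cerebellum alone or cerebrum alone, over the 2 libraries and 1061 coding genes with 20 or more sites. Nfia was most like Nfib (distance 0.0571), and Nfib most like Mycl (0.0286). Nfix was most like Ehmt1 (0.0468), Zeb1 most like Nlgn1 (0.0484) and Zeb2 most like Ankrd12 (0.0508). The value for Nfic and Zmiz1 (0.0269) rests on the 5 sites of Nfic. Of these nearest genes only that of Nfia was itself a member.

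Known partners and targets of the 2 families were counted in the same way. Of 15 cofactors, among them the SMAD signal transducers, the ZEB corepressor Ctbp1 and subunits of the NuRD complex, 11 had an exonic DRACH site in cerebellum and 12 in cerebrum, beside the 35.4% and 45.6% of coding genes given above. Ski, a repressor of SMAD signalling, had the most, 18 in cerebellum and 25 in cerebrum, and Sox9, which drives glial fate, had 8 and 14. Of 10 reported targets 5 and 7 had a site. Cntn2, an adhesion gene of granule neurons, had 13 and 28, Slc1a3, the glial glutamate transporter, had 11 and 10, and Gabra6 and Cdh1 had none in either list. More sites in cerebrum than in cerebellum were listed for 11 cofactors and 6 targets, and fewer for 1 cofactor and 2 targets. The remaining cofactors and targets had no site in either list. The 81.3% given above covers only coding genes with a site.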

How the data were processed

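GLORI was run on poly(A)+ RNA. Per the methods, the authors called sites with GLORI-tools against mm10 and a PWK-substituted mm10, joined the results and kept sites above the stated rate and read count. The deposited files hold only chromosome, position and strand (no score, unit other), so no level, read count or depth could be used and no test between tissues was made. Sites were placed on GENCODE M21 models (not the release the methods name) with Python 3.11.15. Region and exon came from the longest coding isoform with complete coding sequence and both UTRs covering the site, and DRACH adenosines were counted on the gene's longest such isoform. Coding genes for comparison had at least 1 exonic DRACH site. Proteins were translated from the genome and aligned with MAFFT 7.526. Placement was tested on simulated sites. All 6 members were named, and printed sites were taken from those nearest the stop codon in both libraries, at shared NFI columns or in the densest 200 nt. Zeb1 sequence is not reported here. Members, lists and measures were chosen with earlier results of these data known. The exon length, junction, 3′ UTR distance, repeat, ZEB alignment and seed counts were added after values were seen.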

Additional observations from a re-analysis of the deposited data

How the results depend on the processing

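No paired analysis was possible because there was 1 library per tissue, and for the same reason no library could be left out. Of the settings tried, these moved a value beyond its interval, or a count without an interval by over 1.5 times. Counting only sites on exons of any transcript left 217 member sites in cerebrum and gave a DRACH share of 75% in cerebellum and 65.9% in cerebrum, and RRACH (A or G first) in place of DRACH gave 52.9% and 30.4%. With all exonic sites, the share found in the other library was 81.9% of cerebellum and 42.0% of cerebrum sites. With sites of both libraries only, the listed share of DRACH adenosines in cerebrum was 6.01% for NFI and 12% for ZEB, and on the isoform with the longest coding sequence it was 24.8% for ZEB. With a 400-nt window 21.3% of NFI cerebrum sites were near the stop codon. Some values moved widely but stayed inside their intervals. The 400-nt window took NFI in cerebellum from 11.4% to 22.9% and ZEB in cerebrum from 8.96% to 17.9%. The isoform with the longest coding sequence took NFI in cerebrum from 6.67% to 10.8% near the stop codon, and the NFI coding share in cerebellum from 11.4% to 17.6%. The coding shares of NFI and ZEB stayed within their intervals under each isoform rule and with sites of both libraries. On the Nfib isoform with the longest coding sequence, 2 more sites, at codons 544 and 557, are coding. On the longest isoform these are the 3′ UTR sites at 29 nt and 69 nt past the stop codon. Since depth is unknown, an unlisted adenosine cannot be told from a thinly covered one, and the longer cerebrum list limits every comparison of the tissues.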
